A study of Homo sapiens with 12 samples.

Results

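DNA replication and S-phase genes were followed as a module of 55 genes, taken as the genes of the deposited count table whose name is on a fixed list, 55 of 57500 genes in all. All 55 passed the filter on low counts, and the lowest count of any member in any library was 92, for CCNE2. In S phase a cell copies its genome from origins that were licensed beforehand by the origin recognition complex, CDC6 and CDT1, which load the MCM helicase. The kinases CDC7-DBF4 and cyclin E-CDK2 start the origins, polymerases and the sliding clamp PCNA copy the strands behind the helicase, and ribonucleotide reductase, thymidylate synthase and thymidine kinase supply nucleotides. Many of these genes are transcribed as cells enter S phase under E2F factors, and a growing culture of cancer cells holds cells in S phase at any time.

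The series sequenced RNA of HCC1806 and MDA-MB-468, both cell lines derived from triple-negative breast tumours, with and without CRISPR-Cas9 depletion of PACT, the double-stranded RNA binding protein encoded by PRKRA. The 12 libraries form 4 groups of 3: HCC1806 with the control guide sgC1, HCC1806 with the PRKRA guide sgPACT-2, MDA-MB-468 with the control guide sgNTA, and MDA-MB-468 with sgPACT-2. Libraries with sgPACT-2 are called depleted here after their labels, and PACT protein was not analysed here. Both such groups rest on the same single guide, and because the control guides differ, line and control guide cannot be told apart. The labels do not say whether libraries of a group came from separate cultures, so p-values measure the spread between these libraries, which may be technical.

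Levels are counts relative to the TMM-scaled library total (CPM) as mean ± SD over 3 libraries, changes are log2 fold changes with their standard error (SE), and p-values are from edgeR's two-sided quasi-likelihood test with Benjamini-Hochberg adjustment over all genes tested. A gene was called at an adjusted p under 0.05. The libraries held 18633628 to 44780207 counts. In HCC1806 the share taken by members was 0.304% to 0.328% in control and 0.294% to 0.335% in depleted libraries, highest in depleted replicate 1. In MDA-MB-468 it was 0.405% to 0.436% in control and 0.390% to 0.434% in depleted libraries. PRKRA was at 78.7, 82.7 and 72.2 CPM in the control and 37.5, 36.1 and 37.3 CPM in the depleted libraries of HCC1806, and at 41.1, 45.9 and 46.9 and 39.1, 35.5 and 41.6 CPM in those of MDA-MB-468. Its fold change was -1.07 (SE 0.10, adjusted p 1.66e-05) in HCC1806 and -0.20 (SE 0.10, adjusted p 0.956) in MDA-MB-468, so the transcript of the targeted gene fell in the first line only by this test, and the difference between the lines was 0.87 (SE 0.14, adjusted p 0.0198). EIF2AK2, which encodes the kinase PKR, did not pass in either line, at -0.39 (SE 0.11, adjusted p 0.0655) in HCC1806 and -0.0030 (SE 0.11, adjusted p 1) in MDA-MB-468. The summed level of 8 epithelial markers was 3739 to 4185 CPM in control and 2731 to 3011 CPM in depleted libraries of HCC1806, and 12495 to 14167 CPM in MDA-MB-468. In HCC1806 KRT5, EPCAM and CDH1 were called lower, 3 of the 8 against 1.34% of all genes that fell. With HCC1806 fitted alone 0 of the 8 were called, against 0.316% of all genes. Of the other lineages, 4 leukocyte markers summed to at most 0.762 CPM and 3 endothelial markers to at most 4.02 CPM in any library, while 5 fibroblast markers summed to 17.0 to 51.1 CPM, nearly all of it COL1A1, and the part of these shifts in the results below was not tested. ESR1, a gene that triple-negative tumours lack by receptor staining, was at 20.9 ± 1.81 CPM in control libraries of HCC1806 and 6.66 ± 0.41 CPM in those of MDA-MB-468, and PGR was under 1 CPM in every group mean.

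Most of these genes differed between the control libraries of the lines, as did most genes measured. Of 55 members, 35 were higher in MDA-MB-468 and 10 higher in HCC1806, against 74.3% of all 26904 genes tested called in either direction, 34.2% higher in MDA-MB-468 and 40.1% higher in HCC1806. Among 15886 well-counted genes, those that average 50 counts or more, 82.2% were called, so the members' share of 81.8% is near that of genes of their depth. By direction, 7756 of these well-counted genes were higher in MDA-MB-468 and 5299 higher in HCC1806. For each of the 45 members called all 3 libraries of a line lay above all 3 of the other, against 35.9% of all genes in the direction of MDA-MB-468 and 41.8% in that of HCC1806. Among the 15886 well-counted genes, 8042 and 5571 were separate in these directions. The median log2 difference of the members, MDA-MB-468 minus HCC1806, was 0.72, beside -0.26 over all genes tested and 0.30 over the well-counted ones. Their summed level was 2973 ± 187 CPM in HCC1806 and 4728 ± 179 CPM in MDA-MB-468. In bulk RNA a larger share of cells in S phase and more RNA of these genes per cell cannot be told apart. Of 20 mitotic genes, 3 were higher in MDA-MB-468 and 13 higher in HCC1806, with a median of -0.42, so they did not share the members' direction. Of 13 genes of nucleotide synthesis 11 were higher in MDA-MB-468 and 2 in HCC1806 (median 0.99). Other replication factors, 24 in all, had 13 and 10 (0.51). The 23 regulators upstream of S phase had 10 and 4 (0.16), and 9 genes of the replication checkpoint 4 and 2 (0.06). The cause was not tested. Per length, in CPM per kilobase of exon, the highest member was MCM3, a helicase subunit, in HCC1806 (48.7 ± 4.35), where TK1 was at 45.9 ± 6.37 and did not stand apart beyond the spread. In MDA-MB-468 the highest was PCNA (234 ± 4.93), clear of MCM3 at 88.5 ± 1.53. The lowest per length was CCNE2, encoding cyclin E2, in HCC1806 (1.12 ± 0.287), below GINS3 at 1.62 ± 0.113 by about the sum of their SDs, and POLE2, an accessory subunit of DNA polymerase epsilon, in MDA-MB-468 (3.38 ± 0.274), within the spread of CCNE2 at 3.77 ± 0.318.

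**Figure D1:**
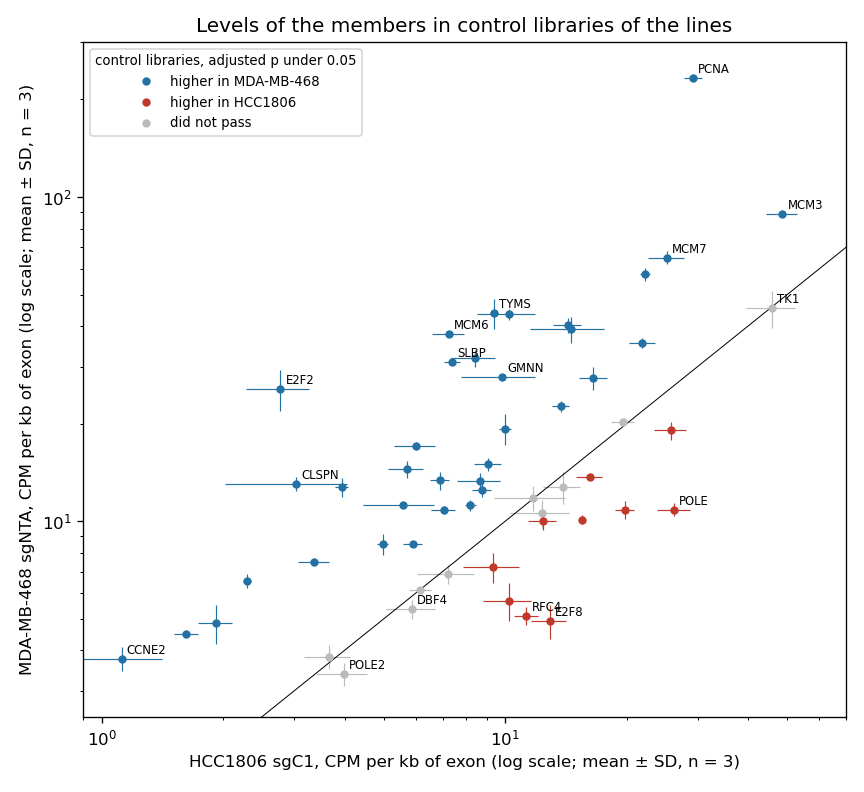
Level per length of each of the 55 members in the control libraries, HCC1806 on the x axis and MDA-MB-468 on the y axis, both in CPM per kilobase of exon on log scales. Points are means and bars SD of 3 libraries, the line marks equal levels, and colour marks the 35 members higher in MDA-MB-468, the 10 higher in HCC1806 and the 10 that did not pass; PCNA and E2F2 lie farthest above the line, POLE and E2F8 far below it.

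E2F2, one of the activating E2F factors, showed the largest difference. Its level was 12.1, 16.3 and 17.0 CPM in the control libraries of HCC1806 and 155, 147 and 117 CPM in those of MDA-MB-468, a log2 difference of 3.20 (SE 0.15, adjusted p 3.31e-12). PCNA, the clamp that tethers polymerases to the template, was at 45.5, 40.9 and 42.8 CPM against 347, 349 and 335 CPM, a difference of 3.00 (SE 0.10, adjusted p 8.12e-14). MCM6, a subunit of the replicative helicase, was at 32.4, 27.1 and 30.1 CPM against 153, 157 and 157 CPM, a difference of 2.38 (SE 0.11, adjusted p 2.53e-12). In all 3 genes each library of MDA-MB-468 lay above each library of HCC1806. E2F1, another activating factor, was also higher in MDA-MB-468, by 1.49, whereas E2F8, a repressive member of the family, went the other way. E2F8 was at 47.8, 53.9 and 58.5 CPM in HCC1806 and 23.0, 20.2 and 18.0 CPM in MDA-MB-468, a difference of -1.39 (SE 0.15, adjusted p 1.7e-07). POLE, the catalytic subunit of polymerase epsilon that copies the leading strand, was at 415, 408 and 482 CPM in HCC1806 and 187, 184 and 171 CPM in MDA-MB-468 (-1.27, SE 0.11, adjusted p 9.51e-09). RFC4, a subunit of the loader that places PCNA on DNA, was at 35.4, 31.3 and 34.8 CPM and 16.3, 15.3 and 14.3 CPM (-1.15, SE 0.12, adjusted p 1.46e-07). These groups did not overlap either, so the clamp and parts of its loader differed in opposite directions: PCNA, RFC1 and RFC2 were higher in MDA-MB-468, RFC4 and RFC5 higher in HCC1806, and RFC3 did not pass.

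To show what an E2F match looks like in these promoters, the 250 bases before the RefSeq start site (build GRCh38.p14) are printed 5′ to 3′ for PCNA (chr20:5126623-5126872, minus strand), MCM6 (chr2:135876444-135876693, minus strand), E2F2 (chr1:23531234-23531483, minus strand) and POLE (chr12:132687343-132687592, minus strand), with matches to an E2F motif in capitals. The first 3 are the members with the largest differences, POLE is the one with the largest difference in the other direction after E2F8, and each was picked with its match known.
PCNA: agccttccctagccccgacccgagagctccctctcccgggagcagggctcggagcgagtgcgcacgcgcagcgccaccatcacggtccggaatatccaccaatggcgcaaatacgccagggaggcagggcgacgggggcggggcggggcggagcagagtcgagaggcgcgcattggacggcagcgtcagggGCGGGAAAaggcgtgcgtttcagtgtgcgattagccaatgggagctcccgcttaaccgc
MCM6: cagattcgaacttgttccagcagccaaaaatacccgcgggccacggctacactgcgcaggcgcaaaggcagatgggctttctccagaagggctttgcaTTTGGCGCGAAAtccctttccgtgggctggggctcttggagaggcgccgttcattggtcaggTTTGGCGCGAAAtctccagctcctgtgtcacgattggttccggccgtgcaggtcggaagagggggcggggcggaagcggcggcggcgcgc
E2F2: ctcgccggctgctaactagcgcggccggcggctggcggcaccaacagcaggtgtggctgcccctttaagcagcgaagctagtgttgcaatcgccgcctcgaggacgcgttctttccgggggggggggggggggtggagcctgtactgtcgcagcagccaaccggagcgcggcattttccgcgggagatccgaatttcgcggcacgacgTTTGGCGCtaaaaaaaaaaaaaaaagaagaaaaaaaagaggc
POLE: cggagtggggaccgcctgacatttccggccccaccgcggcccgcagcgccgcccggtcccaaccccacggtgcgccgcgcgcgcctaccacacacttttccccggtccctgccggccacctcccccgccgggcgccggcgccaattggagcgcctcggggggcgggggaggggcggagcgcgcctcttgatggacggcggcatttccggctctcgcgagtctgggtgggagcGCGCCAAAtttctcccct
The E2F motif was searched as TTTCCCGC, TTTGGCGC, TTTCGCGC and TTTGCCGC on both strands, where matches on opposite strands can overlap one another, as they do in both capital stretches of MCM6. In windows from 250 bases before to 50 after the start site, the PCNA match began 59 bases before the start site, the E2F2 match 42 and the POLE match 18, and those of MCM6 152, 148, 90 and 86. RefSeq windows matched 47 of the 55 members, and 22 of the 47 (46.8%) held an E2F match, compared with 3.31% of 35116 windows of the same length. The members RPA2, RPA3, POLD3, E2F8, MCM4, MCM5, GINS4 and CCNE2 were not matched. By direction between the control lines, 14 of 28 matched members that were higher in MDA-MB-468, 4 of 9 that were higher in HCC1806 and 4 of 10 that did not pass held one. The hexamer TTTGAA, the core of the cell cycle homology region common in promoters of mitotic genes, was found on either strand in 2 of 47 members, DBF4 and RRM1, against 15.2% of all windows and 10 of 15 on a mitosis list. CCAAT, on either strand, was in 25 of 47 (53.2%) against 34.6% of all windows. These are matches of letters and do not show that a factor binds.

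By role, 4 of 5 licensing members, all but ORC6, were higher in MDA-MB-468, with the largest difference for GMNN, the inhibitor of CDT1 (30.1, 22.4 and 20.5 CPM against 69.7, 68.3 and 68.4 CPM, 1.498). Of 12 helicase members, 8 were higher in MDA-MB-468, and MCM10 and GINS1, which help to assemble and activate the helicase, were higher in HCC1806. MCM2, another subunit of the helicase ring, did not pass (0.04, adjusted p 0.751), but was lower in MDA-MB-468 once GC and length trends were removed (-0.24, adjusted p 0.0354), next to 0.70 to 2.38 for MCM3, MCM4, MCM5, MCM6 and MCM7. CDC7, CCNE1 and CCNE2 were higher in MDA-MB-468, by 0.63, 1.01 and 1.75, while DBF4, the activating partner of CDC7, did not pass (-0.13). The 9 polymerase and primase members divided into 4 higher in MDA-MB-468 (POLA1, POLD2, POLD3 and PRIM1), 3 higher in HCC1806 (POLE, POLD1 and POLA2) and 2 that did not pass (POLE2 and PRIM2). Nucleotide supply was led by TYMS, thymidylate synthase (23.6, 23.3 and 22.5 CPM against 109.7, 119 and 96.4 CPM, 2.23), with RRM1 and RRM2, the subunits of ribonucleotide reductase, at 1.92 and 1.42, and thymidine kinase TK1 not passing (-0.02). SLBP, which binds the stem-loop of replication-dependent histone messages, and CLSPN, the checkpoint mediator claspin, were higher by 2.07 and 2.10. The subunits of the histone chaperone CAF-1 differed in opposite directions, CHAF1B by 1.69 and CHAF1A by -0.31. POLA2 (adjusted p 0.0463) kept its call in 3 of 12 fits with a single library removed, CHAF1A in 8 and GINS1 in 10, while the other called members passed in all 12. Scaling by library size alone moved the median to 0.48 and the calls to 33 higher and 16 lower (75.1% of all genes called). Testing well-counted genes alone moved them to 0.41, 32 higher and 17 lower (81.8%), and removal of GC and length trends to 0.48, 35 higher and 14 lower (70.1%). DBF4, POLE2 and BRCA1, which did not pass at first, were called lower in MDA-MB-468 under all 3 of these settings, with -0.38 (adjusted p 0.00539), -0.34 (adjusted p 0.0389) and -0.24 (adjusted p 0.0299) after removal of GC and length trends. CDC45, PRIM2 and RFC3 were called lower under the first pair and MCM2 under the last pair, while ORC1 and RPA3 lost their calls under the first pair and CDC6 among well-counted genes. The distance of the members' median from that of the well-counted genes was 0.42 under the first pair and 0.28 with GC and length trends removed.

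With TMM scaling, depletion of PACT in HCC1806 went with slightly lower levels of most of these genes, and 1 passed. Of 55 members, 45 had a fold change below 0, against 48.5% of all genes tested and 54.2% of the well-counted ones. The median was -0.12, beside 0.01 over all genes tested and -0.03 over the well-counted ones. DBF4 fell and none rose, 1 of 55 members against 2.51% of all genes tested in either direction, 1.34% that fell and 1.17% that rose. Of the 15886 well-counted genes, 356 fell and 275 rose. At an unadjusted p under 0.05 there were 13 members, all lower, against 7.85% of all genes that were lower and 6.65% that were higher. At that level 1975 of the well-counted genes were lower and 1317 higher. The same number of members, 13, had 3 depleted libraries that all lay below the 3 control libraries, and 0 the reverse, against 8.19% and 8.52% of all genes. Among the well-counted genes 1815 and 1342 had groups separate in these directions. Summed over the members the level was 2973 ± 187 CPM in control and 2683 ± 331 CPM in depleted libraries, a difference smaller than the SD of the depleted group.

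**Figure D2:**
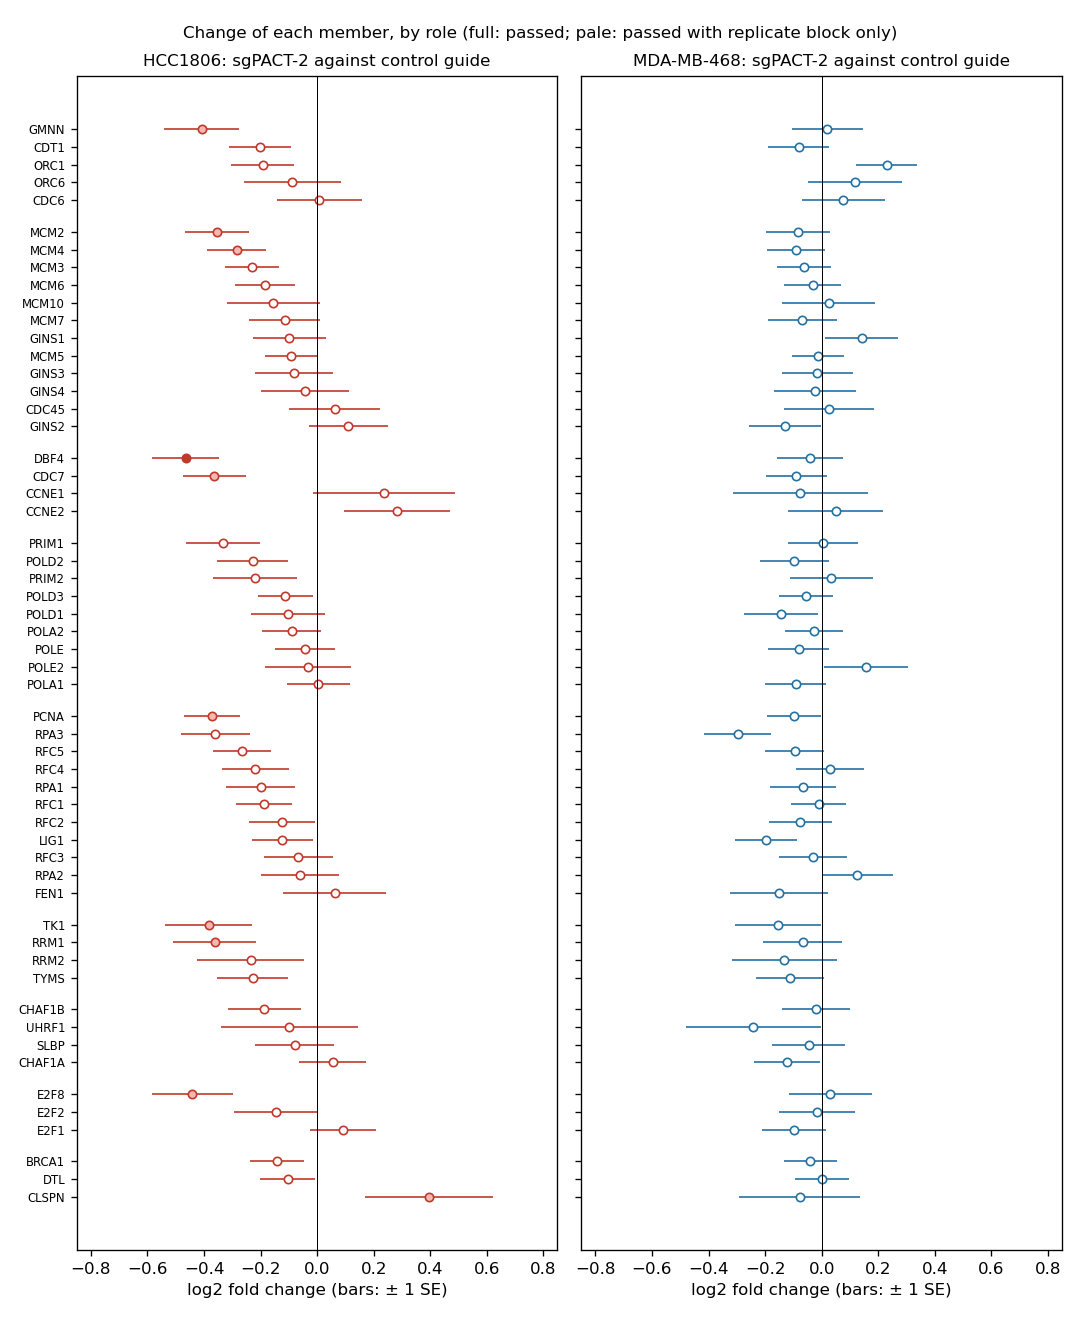
Log2 fold change of each of the 55 members with depletion, ± 1 SE, in HCC1806 on the left and MDA-MB-468 on the right, ordered by role from origin licensing at the top to the fork checkpoint at the bottom. Full points passed an adjusted p of 0.05 (DBF4 in HCC1806), pale points passed in the model with a replicate block but not in the same model lacking it (9 members in HCC1806), and open points passed neither; most points of HCC1806 lie left of 0, between -0.46 and 0.40.

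The shift was uneven across the depleted libraries of HCC1806. Against the mean of the 3 control libraries, the median member was at 0.03 in depleted replicate 1, -0.20 in replicate 2 and -0.25 in replicate 3, with 27, 46 and 53 of 55 members below the control mean. The control libraries themselves had medians of 0.07, -0.10 and 0.02. The leading axis of variation in this line (34.9% of its variance) separated depleted from control libraries. Depleted replicate 1, with 18633628 counts the shallowest library, lay farthest to the depleted side, at 27.0. The other depleted libraries were at 9.6 and 9.9 and the controls at -18.4 to -12.5. Even so, the median member in depleted replicate 1 was not below the control mean. Without this library the median was -0.25 and 12 members fell: CDC7, DBF4, GMNN, MCM2, MCM4, PCNA, POLD2, RFC5, RRM1, RRM2, TK1 and UHRF1, against 4.07% of all genes that fell in that fit. With HCC1806 fitted alone and without that library 0 members passed, and the share of all genes in that fit is not given here. The replicate numbers were taken to pair the libraries of HCC1806, which the labels do not state. The results by pair and with the block below rest on this assumption. Against the control of the same number the median member was at -0.04, -0.10 and -0.32 in pairs 1, 2 and 3, with 33, 39 and 51 members lower. In all 3 pairs 28 of 55 members were lower, against 18.8% of all genes tested and 24.9% of the well-counted ones, and 2 were higher in all 3, CCNE2 and CLSPN. With the replicate number as a block 9 members fell and 1 rose, against 4.64% and 2.61% of all genes. Of the 15886 well-counted genes, 1238 fell and 631 rose with the block. The 6 libraries of HCC1806 fitted alone gave 0 calls (0.316% of all genes tested), and 0 with the block as well (2.86%). Fitted alone, HCC1806 had a biological coefficient of variation of 0.204 and MDA-MB-468 one of 0.0934. DESeq2 called 3 members, all lower (CDC7, DBF4 and PCNA), against 4.65% of all genes, the removal of GC and length trends 0 against 2.85%, and this removal with the block 10 against 8.37%. With library size as the only scaling the members' median was -0.00036, with 29 of 55 below 0, and that of all genes was 0.13. The members then stood below the median of all genes but at about 0.

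**Figure D3:**
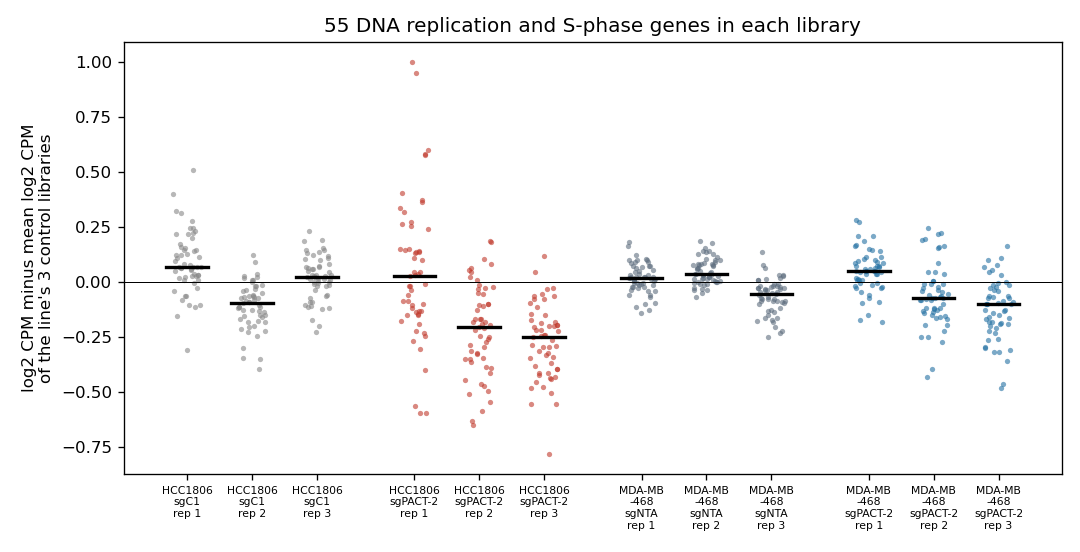
Log2 CPM (prior count 2) of the 55 members in each of the 12 libraries minus the mean of the 3 control libraries of the same line; each point is a gene and each bar the median of a library. Depleted replicates 2 and 3 of HCC1806 lie lowest, with medians of -0.20 and -0.25, while depleted replicate 1 has a median of 0.03 and the widest spread of points.

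Among the kinases and cyclins, both subunits of the origin-firing kinase had lower values in HCC1806, and 1 of them passed. DBF4 (ENSG00000006634, chromosome 7, 87876216 to 87909541, plus strand), the regulatory subunit, was at 31.3, 24.2 and 25.5 CPM in the control libraries and 20.3, 18.8 and 19.5 CPM in the depleted ones. All 3 depleted libraries lay below all 3 controls, and the fold change was -0.46 (SE 0.12, adjusted p 0.0473). The adjusted p was 0.0127 with the replicate block and 0.232 in HCC1806 alone, and it stayed under 0.05 in 2 of 12 fits with a library removed, those without sgC1 replicate 2 or sgPACT-2 replicate 1 (range 0.0241 to 0.196). CDC7, the catalytic subunit, was at 26.0, 23.1 and 26.0 CPM in control and 20.8, 17.1 and 20.5 CPM in depleted libraries. The groups did not overlap, and the fold change of -0.36 (SE 0.11, adjusted p 0.103) did not pass, but did with the block (adjusted p 0.0304). The cyclins that partner CDK2 had positive values that did not pass, CCNE1 at 0.24 (SE 0.25) and CCNE2 at 0.28 (SE 0.19). CCNE1 was at 27.1, 13.0 and 10.4 CPM in the depleted libraries against 17.4, 12.9 and 12.2 CPM in the controls, with depleted replicate 1 the high library.

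In origin licensing the inhibitor GMNN had the largest value. It was at 30.1, 22.4 and 20.5 CPM in control and 20.4, 18.4 and 16.3 CPM in depleted libraries, with control replicate 3 only just above depleted replicate 1, and its fold change of -0.41 (SE 0.13, adjusted p 0.125) did not pass, but did with the block (adjusted p 0.019). CDT1, the loader that GMNN restrains, was at 51.3, 54.5 and 60.0 CPM against 51.2, 47.8 and 45.1 CPM. These groups were separate by a narrow margin and the fold change did not pass (-0.20, SE 0.11, adjusted p 0.434). ORC1, ORC6 and CDC6 ranged from -0.19 to 0.01, each with overlapping groups.

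Of 12 helicase members 0 passed, and 10 were below 0, with a median of -0.11. MCM2 was at 91.7, 93.3 and 103 CPM in control and 86.5, 70.4 and 68.7 CPM in depleted libraries, where replicates 2 and 3 were the low ones. MCM4 was at 164, 142 and 152 CPM against 141, 122 and 114 CPM, with depleted replicate 1 just below the lowest control. Both are subunits of the helicase ring, both had groups that did not overlap, and their fold changes of -0.35 (SE 0.11, adjusted p 0.121) and -0.28 (SE 0.10, adjusted p 0.187) did not pass, but did with the block (adjusted p 0.0357 and 0.0409). The other ring subunits, MCM3, MCM5, MCM6 and MCM7, had values of -0.23, -0.09, -0.18 and -0.11. Of the partners that complete the active helicase, CDC45 and GINS2 were above 0, at 0.06 and 0.11, and did not pass.

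**Figure D4:**
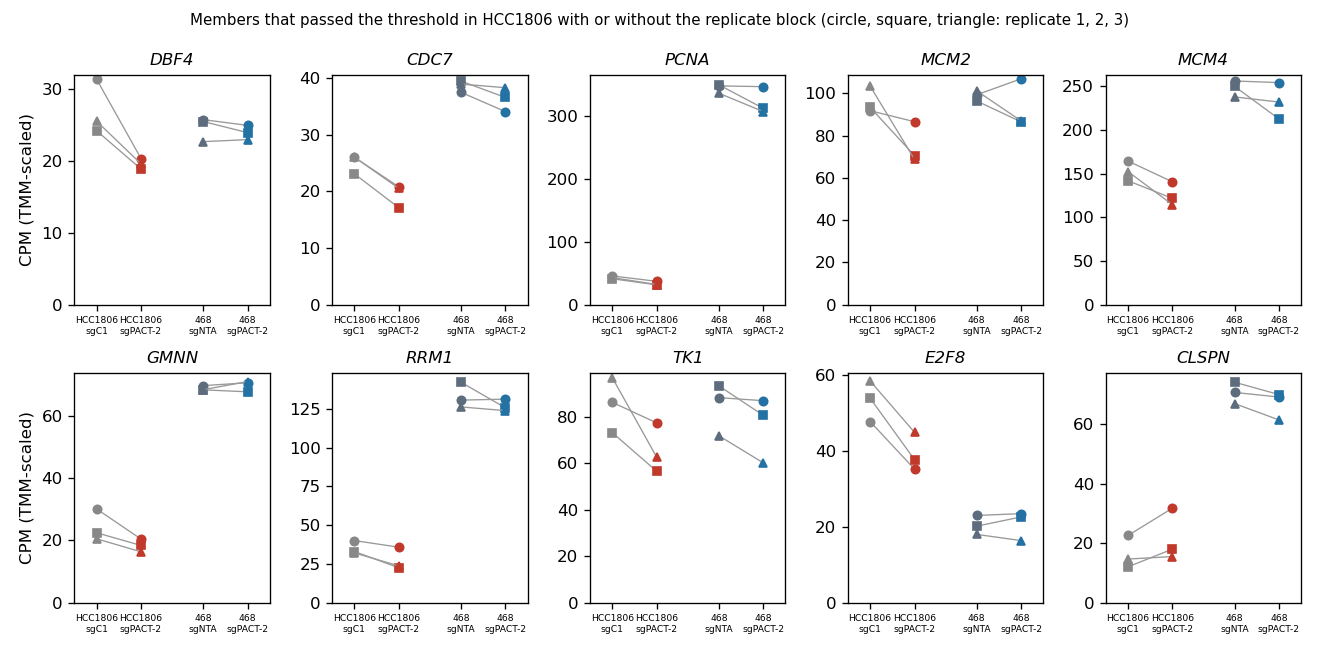
CPM in every library of the 10 members of HCC1806 that passed with or without the replicate block, in HCC1806 (left pair of columns) and MDA-MB-468 (right pair); lines join libraries with the same replicate number and each y axis starts at 0. In HCC1806 the lines of DBF4, CDC7, PCNA and E2F8 all slope down and those of CLSPN up, with PCNA at 36.8, 31.2 and 31.8 CPM in the depleted libraries.

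PCNA was the member nearest to the threshold after DBF4. It was at 45.5, 40.9 and 42.8 CPM in control and 36.8, 31.2 and 31.8 CPM in depleted libraries of HCC1806, with every depleted library below every control. Its fold change was -0.37 (SE 0.10, adjusted p 0.054), and it passed with the block (adjusted p 0.00906), in DESeq2 (adjusted p 0.01) and without depleted replicate 1 (adjusted p 0.00605). RPA3, the smallest subunit of the single-strand binding protein RPA, was at 20.0, 19.4 and 17.9 CPM against 12.9, 15.0 and 16.7 CPM, again without overlap, and did not pass (-0.36, SE 0.12, adjusted p 0.152) with the block either (adjusted p 0.0829). The loader subunits RFC1, RFC4 and RFC5 also had groups that did not overlap and fold changes that did not pass, at -0.19, -0.22 and -0.26. FEN1, the flap nuclease of Okazaki fragments, was the only one of these 11 members above 0 (0.06, SE 0.18), with 37.3, 21.1 and 21.1 CPM in the depleted libraries, of which the first was high. Among polymerases and primase, 8 of 9 were below 0, 0 passed, and the values ran from -0.33 for PRIM1, the catalytic primase subunit, to 0.0046 for POLA1. PRIM1 was at 11.8, 12.0 and 12.5 CPM in control and 7.99, 10.4 and 10.4 CPM in depleted libraries, which did not overlap. POLD2, the accessory subunit of polymerase delta, was at 83.9, 79.3 and 83.3 CPM against 84.8, 68.0 and 57.8 CPM, low in depleted replicates 2 and 3 only (-0.23, SE 0.12, adjusted p 0.438).

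All 4 members of nucleotide supply were below 0 in HCC1806, the only role of more than 3 members where this was so, with a median of -0.30 and 0 passing. TK1 was at 86.3, 73.3 and 96.9 CPM in control and 77.5, 56.6 and 62.7 CPM in depleted libraries, and RRM1 at 40.1, 33.0 and 32.1 CPM and 35.8, 22.6 and 23.8 CPM. In both genes depleted replicate 1 lay among the controls and the others below them, and the fold changes of -0.38 (SE 0.15, adjusted p 0.236) and -0.36 (SE 0.15, adjusted p 0.242) did not pass, but did with the block (adjusted p 0.02 and 0.0211). RRM2 and TYMS were at -0.24 and -0.23.

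The E2F factors differed among themselves. E2F8 was at 47.8, 53.9 and 58.5 CPM in control and 35.2, 37.7 and 44.9 CPM in depleted libraries, without overlap, with a fold change of -0.44 (SE 0.14, adjusted p 0.132) that did not pass without the block and did with it (adjusted p 0.00801). E2F2 had -0.15 (SE 0.15) and E2F1 0.09 (SE 0.12), and both had overlapping groups. CLSPN, which relays the signal of stalled forks to the checkpoint kinase CHK1, had the largest positive value of all members. It was at 22.6, 12.1 and 14.7 CPM in control and 31.8, 18.0 and 15.5 CPM in depleted libraries. These groups overlapped, but each depleted library was above the control with the same number, and the fold change of 0.40 (SE 0.23, adjusted p 0.474) did not pass, but did with the block (0.38, SE 0.11, adjusted p 0.0385). BRCA1 and DTL had -0.14 and -0.10. Of the members that act on new chromatin 0 of 4 passed: CHAF1B had -0.19, SLBP -0.08 and CHAF1A 0.05, and UHRF1, which recruits maintenance methylation, ran from 34.6 to 88.9 CPM in the depleted libraries alone.

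In MDA-MB-468 none of the 55 members passed, against 0.171% of all genes tested. PRKRA itself did not pass in these libraries, so their depletion is not shown by the RNA. At an unadjusted p under 0.05 there was 1, RPA3, lower against 2.03% of all genes that were lower and 3.25% that were higher, and DESeq2, the replicate block in the model of all 12 libraries and the line fitted alone each called 0, against 0.427%, 0.379% and 1.51% of all genes. The median fold change was -0.06, with 40 of 55 below 0 against 50.8% of all genes and 55.1% of the well-counted ones. The summed level was 4728 ± 179 CPM in control and 4515 ± 319 CPM in depleted libraries. Groups were separate for 4 members, 2 lower (RPA3 and GINS2) and 2 higher (ORC1 and RPA2), against 6.92% and 6.23% of all genes. RPA3 was at 28.0, 27.4 and 27.2 CPM in control and 24.4, 20.4 and 22.5 CPM in depleted libraries, all 3 of the latter lower, with a fold change of -0.30 (SE 0.12, adjusted p 0.808). ORC1, the largest subunit of the origin recognition complex, was at 34.9, 37.0 and 34.1 CPM against 42.9, 41.8 and 39.6 CPM, all 3 depleted libraries higher (0.23, SE 0.11, adjusted p 0.948). With MDA-MB-468 alone and the replicate number as a block, 4 members passed, ORC1 upward and LIG1, RPA3 and UHRF1 downward, 4 of 55 against 4.83% of all genes. The numbers did not meet the condition for pairing in this line, so this count is a description.

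By role, the values in MDA-MB-468 stayed close to 0. In 6 roles the members with the smallest p were GINS1 at 0.14, CDC7 at -0.09, POLD1 at -0.14, TK1 at -0.15, CHAF1A at -0.12 and E2F1 at -0.10, with SEs of 0.11 to 0.15 and none passing. DBF4 was at 25.7, 25.4 and 22.6 CPM in control and 24.9, 23.9 and 22.9 CPM in depleted libraries, a fold change of -0.04 (SE 0.12). PCNA was at 347, 349 and 335 CPM and 346, 312 and 306 CPM, a fold change of -0.10 (SE 0.09). For both genes the groups overlapped.

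The test of the difference between the lines, MDA-MB-468 minus HCC1806, called 0 of 55 members, against 0.123% of all genes tested. DESeq2 and the replicate block also called 0, against 0.665% and 1.01% of all genes, and 4 members had an unadjusted p under 0.05, all with a positive difference, against 4.37% of all genes with a positive and 4.05% with a negative one. These were E2F8 at 0.47 (SE 0.21, adjusted p 0.546), GMNN at 0.43 (SE 0.18, adjusted p 0.522), DBF4 at 0.42 (SE 0.17, adjusted p 0.482) and ORC1 at 0.42 (SE 0.16, adjusted p 0.439). The most negative was CLSPN at -0.47 (SE 0.31, adjusted p 0.732). MCM2, PRIM1, PCNA and RRM1 had differences of 0.27, 0.34, 0.27 and 0.29, and CHAF1A one of -0.18. So no member was shown to respond differently in the lines, including DBF4, which was called in HCC1806 only.

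Genes that work around the replication module gave a mixed picture in HCC1806. Of 24 other replication factors 0 passed, with a median of -0.10. WDHD1, a fork protein that links polymerase alpha to the helicase, had -0.36 (SE 0.12, adjusted p 0.136) and was the 1 that passed with the block (adjusted p 0.0337). Of 13 genes of nucleotide synthesis 0 passed, with 11 below 0 and a median of -0.22, and of 9 genes of the replication checkpoint 0 passed, with a median of 0.0017. At an unadjusted p under 0.05 these lists held 3 of 24, 4 of 13 and 1 of 9 genes, all lower. This is set against 7.85% of all genes and 1975 of the 15886 well-counted ones. With the block PAICS passed (adjusted p 0.00268), as did 1 gene of the checkpoint, the kinase gene WEE1 (adjusted p 0.04), both lower. Without it PAICS, a bifunctional enzyme of purine synthesis, was nearest to passing (-0.47, SE 0.13, adjusted p 0.0589).

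Among 23 regulators upstream of S phase 1 rose and 3 fell in HCC1806, with a median of -0.05, against 1.17% and 1.34% of all genes. Of the 15886 well-counted genes 275 rose and 356 fell. With the block 2 of the regulators rose and 6 fell, against 2.61% and 4.64% of all genes and 631 and 1238 of the well-counted ones. CDKN1A, which encodes the CDK inhibitor p21, was at 40.4, 40.3 and 25.0 CPM in control and 82.3, 66.9 and 61.6 CPM in depleted libraries, all 3 higher, and rose by 1.00 (SE 0.17, adjusted p 0.00448). CCNA2, the cyclin of S phase and G2, was at 114, 76.1 and 71.5 CPM against 58.6, 58.8 and 48.2 CPM and its fold change was -0.66 (SE 0.15, adjusted p 0.0248). SKP2, the ubiquitin ligase subunit that marks CDK inhibitors for degradation, had -0.48 (SE 0.09, adjusted p 0.0112), and RBL2, which encodes the RB-related repressor p130, -0.43 (SE 0.10, adjusted p 0.037). With HCC1806 fitted alone all 4 lost their calls, with adjusted p of 0.0623 for CDKN1A, 0.196 for CCNA2, 0.161 for SKP2 and 0.256 for RBL2. RB1, the retinoblastoma repressor of E2F factors, was at 27.6 ± 5.23 CPM in control libraries of HCC1806 and 1.41 ± 0.0979 CPM in those of MDA-MB-468, a difference of -4.28 (SE 0.17, adjusted p 5.25e-13), and did not pass with depletion in either line.

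Mitotic genes had larger values than the replication members in the same libraries. Of 20 on the list, 11 fell and 0 rose in HCC1806, against 1.34% of all genes that fell and 356 of the 15886 well-counted ones. Their median was -0.52 with all 20 below 0, beside -0.12 and 45 of 55 for the members. The difference between the lists was not tested. KIF20A, a kinesin of the dividing cell, was at 168, 157 and 150.1 CPM in control and 98.0, 106 and 88.7 CPM in depleted libraries (-0.70, SE 0.11, adjusted p 0.0018), and was the 1 gene of the list that passed in HCC1806 alone (adjusted p 0.0456). NUSAP1 had -0.53 and CCNB2 -0.56. With the block 19 of the 20 fell, all but FOXM1, against 4.64% of all genes and 1238 of the 15886 well-counted ones. In depleted replicate 1, where the replication members were at 0.03, the median mitotic gene was at -0.32 against the control mean, and in replicates 2 and 3 at -0.51 and -0.66. In MDA-MB-468 0 genes passed in any of these 5 lists. MDA-MB-468 fitted alone called ORC5, a subunit of the origin recognition complex (adjusted p 0.0226), and CCND1, cyclin D (adjusted p 0.0243), both higher with depletion, against 1.51% of all genes in either direction. The test of the difference between the lines called 0 genes in any of the 5 lists. At an unadjusted p under 0.05 it held 11 mitotic genes, all with a positive difference, against 4.37% of all genes and 933 of the 15886 well-counted ones. The block used numbers that were taken to pair the libraries of HCC1806 but not those of MDA-MB-468. With it, this test called 7 mitotic genes with a positive difference, among them KIF20A (adjusted p 0.0289), against 1.01% of all genes. Of the regulators it called SKP2 (0.58, adjusted p 0.0267) and CDKN1A (-1.03, adjusted p 0.0017).

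**Figure D5:**
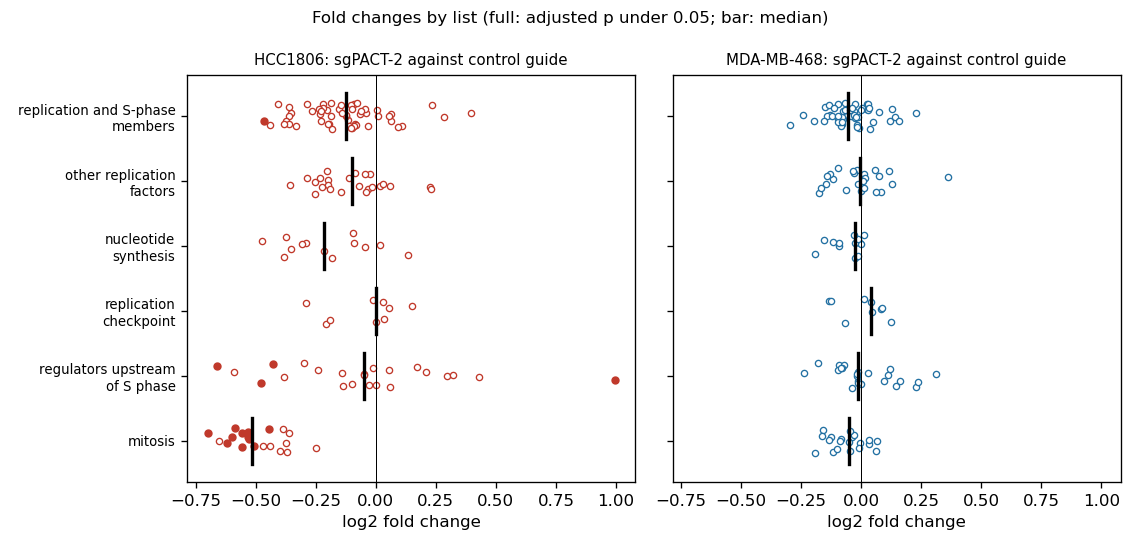
Log2 fold change with depletion of the 55 members and of the genes of 5 surrounding lists, in HCC1806 (left) and MDA-MB-468 (right). Each point is a gene, full points passed an adjusted p of 0.05 and bars are list medians; in HCC1806 the mitotic genes have a median of -0.52 and the members one of -0.12, while in MDA-MB-468 every median lies close to 0 and no point is full.

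Some of these counts may hold reads of other genes, because whether counting used strand is not given in the sources used here. TYMS shares 39.2% of its exon length with ENOSF1 on the opposite strand, CCNE2 37.1% with INTS8, MCM2 22.7% and GINS4 21.2% with antisense genes, and POLA2 35.1% and RRM2 20.2% with genes annotated on the same strand. PCNA, RRM2, RPA2, TYMS, DBF4, FEN1, RFC3, RFC5 and POLD2 have named pseudogenes that could share reads with them.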

How the data were processed

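RNA-seq of 12 libraries was used as deposited: a table of raw counts of reads per gene, which the authors made with Trimmomatic 0.36, STAR 2.5.2b and featureCounts of Subread 1.5.2 on GRCh38, per the submitters' processing notes. The annotation release and the strand setting are not given in the sources used here. Groups were taken from the labels. Of the table, 485 lines with no gene name (0.0284% of counts) were left out, and GENCODE 29 matched 56898 identifiers and gave exon lengths and coordinates. Where a symbol had several identifiers, the one with most counts was used.

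Genes were filtered with filterByExpr (26904 of 44090 with a count), scaled by TMM and tested in edgeR 4.0.16 (R 4.3.3, limma 3.58.1) with 1 quasi-likelihood model of all 4 groups, which share an estimate of the spread. Log2 CPM of single libraries used a prior count of 2. The procedure was also run on simulated data in which both lines had the same spread for a gene. That run cannot show how the model treats lines of unlike spread. Alternatives were DESeq2 1.42.0, other scalings and filters, each line alone, GC and length trends removed (lowess span 0.3, GC known for 99.8% of tested genes), the replicate number as a block and each library left out. The fits of a line alone with the block, the GC and length fits and HCC1806 alone without sgPACT-2 replicate 1 were chosen after seeing the data. Deviations from group means of same-numbered libraries correlated at 0.479, 0.294 and 0.152 in HCC1806, all above 0.1, and the numbers were taken to pair them. Libraries of unlike number reached 0.351 there, for sgC1 replicate 2 with sgPACT-2 replicate 3. In MDA-MB-468 same-numbered libraries correlated at 0.116, 0.0748 and 0.106 and were not taken as paired, though those of unlike number reached only 0.0044. The labels give numbers only, so pairing was an assumption in HCC1806 and remains possible in MDA-MB-468. Named members were, in each role, those with the smallest p in each line and in the difference between lines, the 3 largest and 3 smallest differences between control lines and the extremes per length. From the other lists the 3 with the smallest p in each line could be named, and those that passed in some fit were preferred. Other members and genes named, RBL2, RB1, WEE1 and FOXM1 among them, were chosen after their values were seen. Members and lists were chosen with earlier results of these data known. Figures were drawn with matplotlib 3.10.9 in Python 3.11.15. Depth was 18633628 to 44780207 counts a library, and the lowest count of a member was 92, for CCNE2.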

Additional observations from a re-analysis of the deposited data

Results flagged for a closer look

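PRKRA, the targeted gene, differed between the lines in its response: the log2 fold change of depleted against control libraries was 0.87 higher in MDA-MB-468 than in HCC1806 by edgeR's test of the difference itself (adjusted p 0.0198). Leaving out 1 library at a time, the adjusted p was 0.0047 to 0.0931. Protein levels were not analysed here.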

How the results depend on the processing

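The 1 member called in HCC1806 became 3 with DESeq2, 2 with no filter on low counts, 2 among well-counted genes (50 counts on average), and 0 with RLE size factors, library size only, HCC1806 alone, HCC1806 alone with the replicate block, HCC1806 alone without sgPACT-2 replicate 1, GC and length trends removed, an adjusted p under 0.01 or a fold change of 1 or more in absolute log2. It was 10 with the replicate block, also with GC and length trends removed, and 0 to 12 when 1 library was left out, the 12 without sgPACT-2 replicate 1. The median in HCC1806 was -0.25 to -0.09 with 1 library left out and -0.00036 with library size only. In MDA-MB-468, where libraries were not taken as paired, the replicate block gave 0 calls in the model of all libraries and 4 in that line alone. Between control lines the median of 0.72 was 0.48 with library size only, 0.41 among well-counted genes and 0.48 with GC and length trends removed. There 25 members passed an absolute difference of at least 1. The share of all genes that did so is not given here, so this count does not set members apart. Quartiles of the difference were -0.10 and 1.48 for members and -1.79 and 0.96 over all genes tested. Over well-counted genes they were -0.80 and 1.22. Signs of values near 0 reversed: EIF2AK2 in MDA-MB-468 was 0.045 with library size only, 0.0032 among well-counted genes, 0.012 in that line alone, 0.010 with the block as well, and -0.071 to 0.047 without 1 library. SLBP in HCC1806 was 0.039 with library size only and -0.262 to 0.035 without 1 library, and BRCA1 in MDA-MB-468 was 0.011 with library size only. The cause of these changes was not tested. With 3 libraries a group and SEs of 0.09 to 0.25 for members in HCC1806, small shifts of single genes were not detectable.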
